A study of Mus musculus with 40 samples.

Results

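The brown and beige fat genes followed here are 8 genes that mark or drive heat production in adipocytes: Ucp1, Cidea, Elovl3, Cox7a1, Cox8b, Ppargc1a, Prdm16 and Dio2. They were taken by name, as every probe whose gene symbol in the deposited fold change table is one of the 8, which gave 10 of 40628 probes and 8 of 29411 gene symbols. Ucp1 and Ppargc1a have 2 probes each and the other genes 1. The RNA came from frozen subcutaneous tissue of C57BL/6J mice, weaned at 3 to 4 weeks and divided into 5 groups of 30, and the series calls the cells subcutaneous SVCs and infiltrating macrophages. LFC mice ate a low-fat normal diet with 10% of calories from fat, HFC mice a high-fat, increased-sucrose diet with 60% of calories from fat, and HF5, HF20 and HF75 mice that same high-fat diet with 5, 20 or 75 µg of Kal-1, an ethno-botanical formulation. From each group 5 mice were sacrificed every 3 weeks over 18 weeks. The age at each time point is not stated beyond the age at weaning. LFC and HFC have 11 arrays each (Days 1, 6, 10 and 14, Week 0, and every 3 weeks from Week 3 to Week 18), HF5 has 6 (Week 3 to Week 18), and HF20 and HF75 have 5 each (Week 3 to Week 15). Each diet has 1 array per time label, and Day 14 and Week 0 name the same time in the study's methods. How many mice stand behind an array is not stated, and nothing says that the arrays came from separate animals, so a p value measures the spread between arrays. The 2 other arrays of the series, both Week 18, carry conflicting dose labels and enter no comparison, which leaves 38 of 40 arrays.

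Ucp1 sits in the inner mitochondrial membrane of brown and beige adipocytes and lets protons return without making ATP, so that respiration yields heat. Noradrenaline acts through beta adrenergic receptors and cAMP to release fatty acids and to raise transcription of Ucp1, with Ppargc1a driving mitochondrial genes, Prdm16 holding the brown and beige program, and Dio2 supplying active thyroid hormone. Beige adipocytes appear among the white adipocytes of subcutaneous fat after cold or adrenergic stimulation, whereas brown adipocytes fill their own depots.

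A level is the log2 of the deposited processed intensity of a probe over the 75th percentile of its array, so a level of 0 is that percentile and a difference of 1 is 2-fold. Feature Extraction marks whether a spot lies well above background. A value that does not and that lay under the lowest level well above background on its array was raised to that level. Values not well above background, raised or not, have no order among themselves. Over the 38 arrays, Cox7a1 was well above background on all 38, Cidea, Ppargc1a and Prdm16 on 37 each, Cox8b on 36 of the 37 with a value, Ucp1 and Dio2 on 35 each, and Elovl3 on 17. All arrays of a diet differ in time label, and a scan date in the file headers holds arrays of 1 time label only, so time and scan date cannot be told apart. The titles of the 2 Day 6 arrays carry P5 where all other titles carry P4, with no meaning given, and Ucp1, Cidea, Cox7a1 and Cox8b read high on those arrays. The titles of LFC and HF20 Week 12 give no time, which was taken from their other labels. HFC Day 1 was alone on its slide and scan date, and the 2 Day 6 arrays shared a slide and a date with no other array. The LFC Week 3 array was dim: 17.2% of its probes lay well above background and its lowest usable level was -0.03, so Elovl3, Ppargc1a, Prdm16 and Dio2 have no usable low values there. The LFC Day 14 array had 9104 spots marked as outliers and a lowest usable level of -3.57. Ranked against every other array, LFC Week 3 had a median correlation of 0.615, LFC Day 14 of 0.659 and LFC Week 18 of 0.826. Saturated spots were kept. Cidea was saturated on 6 arrays (HFC Day 1, LFC Day 6, HFC Day 6, HF5 Week 9, HFC Week 9 and LFC Week 12), Cox7a1 on 3 (HFC Day 1, LFC Day 6 and LFC Week 12), Ucp1 on 1 (HFC Day 1) and Cox8b on 1 (LFC Week 12).

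Markers of the cells were read on the same arrays. The 9 macrophage markers had a mean level of 0.71 on the median array, from -1.36 on HFC Day 1 to 2.81 on HFC Week 6. The 10 adipocyte markers had a mean level of 2.44 on the median array, from -3.39 on LFC Week 18, where Adipoq, Lep, Plin1 and Retn were not well above background, to 5.96 on LFC Day 6. So adipocyte transcripts were present in the material that the labels call SVCs. In bulk RNA, fewer cells of a type and less RNA per cell cannot be told apart.

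For Ucp1, the uncoupling protein itself, the level in the 11 LFC arrays ran from -6.79 (Week 18, raised) through a median of -0.54 to 6.74 (Day 6), and in the 11 HFC arrays from -5.32 (Week 6) through -2.08 to 6.77 (Day 6). It stood high on HFC Day 1 (6.41) and on both Day 6 arrays, and the levels of the 2 diets overlapped over nearly their whole range. In HF5 the lowest, median and highest Ucp1 levels were -6.28 (not well above background), -3.55 and -0.65. In HF20 Ucp1 read -3.70, -1.82, -2.68, -1.88 and -0.57 from Week 3 to Week 15, and in HF75 it read -3.46, -5.17, -0.46, -3.91 and -2.54. All treated arrays therefore lay below 0 for Ucp1, as did 9 of the 12 LFC and HFC arrays of Weeks 3 to 18; LFC Week 3 (1.72), HFC Week 9 (2.59) and LFC Week 12 (2.10) were the 3 above it. By mean level over Weeks 3 to 15, the time labels that all 5 diets have, the diets ranked LFC (-1.21, SD 3.26), HF20 (-2.13, SD 1.16), HFC (-2.48, SD 3.09), HF75 (-3.11, SD 1.76) and HF5 (-3.52, SD 2.08), and no neighbours in that order differed by as much as either SD.

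Cidea, a lipid droplet protein of brown and beige adipocytes, ran in LFC from -6.43 (Week 18, not well above background) through a median of 2.73 to 6.77 (Day 6), and in HFC from -2.76 (Week 15) through 0.14 to 8.33 (Day 6). In HF5 its lowest, median and highest levels were -1.57, -0.33 and 5.45. In HF20 Cidea read -0.39, 0.52, 4.47, 4.92 and 4.50 from Week 3 to Week 15, and in HF75 0.89, 0.32, 1.80, -0.40 and 0.19. High and low arrays were thus separated by a wide gap in HF20, with Weeks 9, 12 and 15 high, while every HF75 array lay at 1.80 or lower. The order of the diets over Weeks 3 to 15 was LFC (mean 2.82, SD 2.45), HF20 (2.80, SD 2.53), HF75 (0.56, SD 0.83), HF5 (0.53, SD 2.80) and HFC (0.12, SD 3.13), where HF20 and HF75 were apart by more than the SD of HF75 and by less than that of HF20, and the other neighbours by less than either SD. The means of LFC, HF5 and HFC each hold a saturated value (LFC Week 12, HF5 Week 9 and HFC Week 9) and are capped. The order among HF75, HF5 and HFC therefore cannot be read. Elovl3, which elongates very long chain fatty acids in brown fat, was the dimmest of the genes: it was well above background on 5 of 11 LFC arrays, 5 of 11 HFC, 4 of 6 HF5, 2 of 5 HF20 and 1 of 5 HF75. It was above 0 on only 2 arrays, LFC Week 12 (0.90) and LFC Day 6 (0.32). Its means over Weeks 3 to 15 were -3.17 in LFC (SD 3.68), -5.32 in HF5 (SD 1.17), -6.06 in HF75 (SD 0.98), -6.53 in HFC (SD 1.14) and -6.70 in HF20 (SD 0.78). Most values behind these means were not well above background and have no order among themselves, so the means give no ranking of the diets.

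Cox7a1 and Cox8b are subunits of cytochrome c oxidase, the last complex of the respiratory chain, in the isoforms found in heart, muscle and brown fat. Cox7a1 ran in LFC from -1.91 (Week 18) through a median of 2.16 to 7.56 (Day 6), and in HFC from -0.19 (Week 6) through 1.82 to 8.10 (Day 6). Cox8b ran in LFC from -6.79 (Week 18, raised) through 1.67 to 6.86 (Day 6), and in HFC from -2.87 (Week 6) through 1.28 to 7.87 (Day 6), over 10 arrays since the HFC Day 1 spot was marked as an outlier. Both subunits read high on Day 6 in both diets, and on HFC Day 1 Cox7a1 was saturated at 6.02, so that array cannot be ranked against Day 6. LFC Week 18 was the lowest for Cox7a1 and the 1 array where Cox8b was not well above background. In HF5 the lowest, median and highest levels were 0.04, 0.62 and 2.33 for Cox7a1 and -3.58, -0.29 and 4.64 for Cox8b. In HF20 Cox8b read 0.44, -2.12, 3.37, 4.42 and 5.49 from Week 3 to Week 15, and in HF75 2.14, -2.38, 2.81, 0.92 and 0.47. Week 6 was the low point for Cox8b in HFC, HF5, HF20 and HF75, and in LFC the same week stood at 4.24. Skeletal muscle markers, genes of another tissue that uses these isoforms, had their highest mean level on that LFC Week 6 array (6.06 over 10 genes, brightest Acta1 at 6.80); their part in the subunits' levels was not tested. Over Weeks 3 to 15 the order was LFC, HF20, HF75, HFC and HF5 for Cox7a1 (means 3.36 to 0.76) and LFC, HF20, HFC, HF75 and HF5 for Cox8b (3.08 to -0.21). Only LFC and HF20 for Cox7a1 were neighbours apart by more than 1 of their SDs (1.17 in HF20), and none by more than both.

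Ppargc1a, the transcriptional coactivator that drives mitochondrial biogenesis, ran from -5.66 (LFC Week 18) through a median of -1.06 to 3.72 (HFC Day 1) over the 38 arrays. Among the other 37 arrays its highest level was 1.45 (LFC Week 12), so HFC Day 1 stood well apart. Prdm16, the transcriptional regulator of the brown and beige program, varied least (mean 0.74, SD 1.02): it ran from -2.81 (LFC Week 18) through 0.94 to 2.04 (HF75 Week 15). Only 4 arrays had Prdm16 below 0, namely LFC Week 18, HF5 Week 3 (-2.42), HF75 Week 9 (-1.03) and LFC Week 9 (-0.20). By mean over Weeks 3 to 15 Ppargc1a ranked LFC (0.12), HF20 (-0.31), HFC (-1.25), HF75 (-1.41) and HF5 (-1.58), where HF20 and HFC were apart by more than the SD of HFC (0.71) and by less than that of HF20. Prdm16 ranked HF20 (1.12), HFC (0.95), HF75 (0.94), LFC (0.48) and HF5 (0.46), with no neighbours apart by as much as either SD. Dio2, the deiodinase that turns thyroxine into its active form, read -2.40 (SD 1.35) on average in LFC and -2.45 (SD 1.78) in HFC. In LFC it ran from -4.13 (Week 9) through a median of -2.71 to 0.02 (Week 18), and in HFC from -4.47 (Week 18) through -2.79 to 2.44 (Day 1). In HF20 Dio2 read -4.76, -2.97, -3.84, -2.66 and -3.79 from Week 3 to Week 15, in HF75 -4.22, -1.17, -4.82, -3.18 and -0.86, and in HF5 its lowest, median and highest levels were -5.38 (not well above background), -2.95 and -1.43. Dio2 was therefore highest on HFC Day 1, and the 1 other level above 0 was on LFC Week 18, the array where Cox7a1, Ppargc1a and Prdm16 were lowest and Ucp1, Cidea, Elovl3 and Cox8b were not well above background. Its order over Weeks 3 to 15 was LFC (-2.23, SD 1.54), HF75 (-2.85, SD 1.78), HFC (-2.95, SD 0.73), HF5 (-3.34, SD 1.55) and HF20 (-3.60, SD 0.82), with no neighbours apart by as much as either SD. The LFC means of Elovl3, Ppargc1a and Dio2 include the raised value of -0.03 on the dim LFC Week 3 array.

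**Figure D1:**
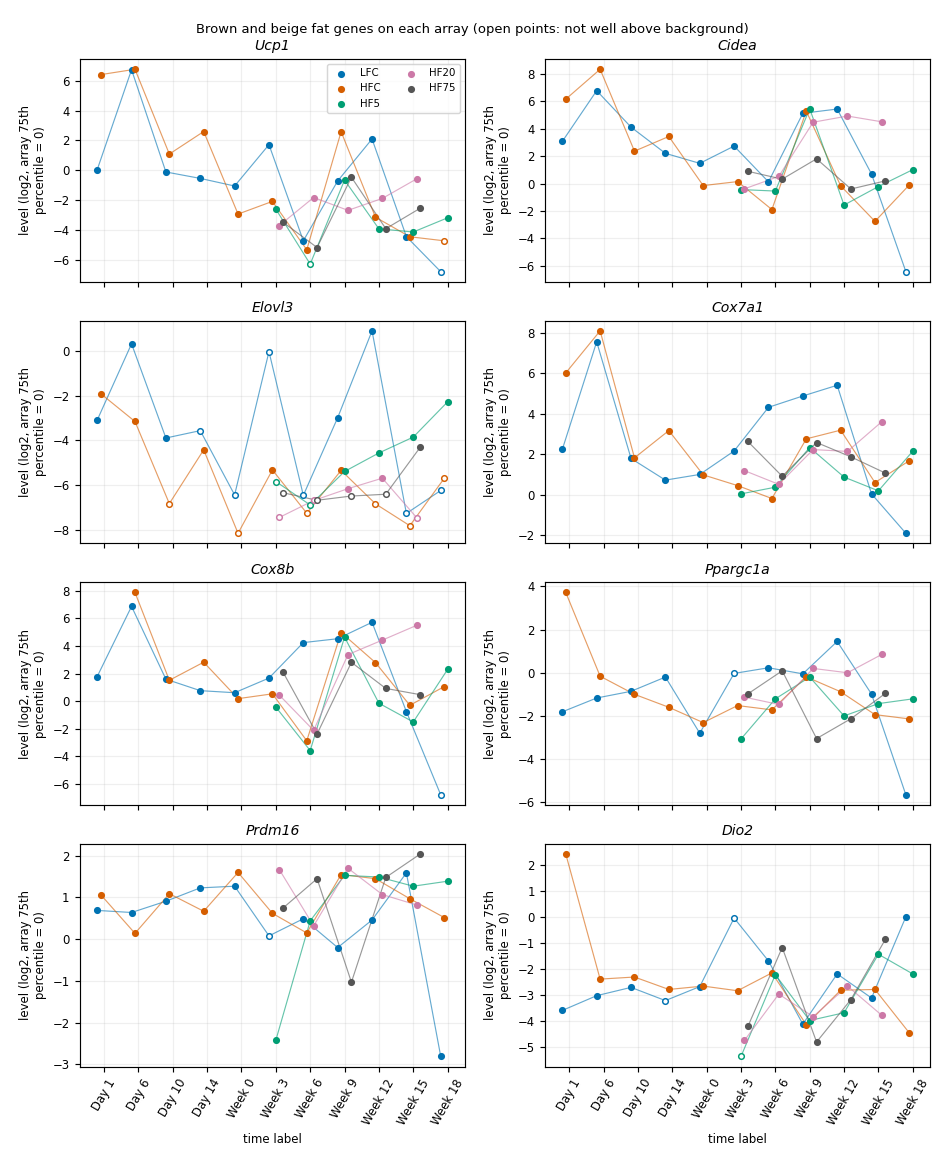
Level of each of the 8 genes (y axis, log2 over the 75th percentile of the array) at each time label (x axis), 1 point per array, coloured by diet, with open points for values not well above background. Ucp1, Cidea, Cox7a1 and Cox8b share high points on both Day 6 arrays (6.77, 8.33, 8.10 and 7.87 in HFC), while Dio2 does not.

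Most of these genes went up and down together from array to array. Pearson's r over 37 or 38 arrays was 0.89 for Cox7a1 with Cox8b, 0.87 for Cidea with Cox8b, 0.84 for Ucp1 with Cidea and 0.80 for Cidea with Cox7a1. Without the 2 Day 6 arrays and HFC Day 1, r was 0.78 for Ucp1 with Cidea and 0.89 for Cox7a1 with Cox8b over 35 arrays. On those 35, r of Ucp1 was 0.56 with Cox7a1 and 0.66 with Cox8b, against 0.78 and 0.75 with no array left out. Dio2 took no part in this over the whole set, where its r with the other 7 genes ran from -0.33 to 0.32. Among early arrays alone its r with Ppargc1a was 0.87, and among late ones -0.01. HFC Day 1 held the highest level of both genes (Ppargc1a 3.72, Dio2 2.44). Without that array and the Day 6 arrays, r of Dio2 with Ppargc1a was -0.02 over 35 arrays. Prdm16 had r of 0.04 with Ucp1 and 0.46 with Ppargc1a (Spearman's rho -0.11 and 0.15), and among early arrays -0.71 and -0.13. These are descriptions of arrays that share slides and scan dates, with no test.

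The adipocyte markers moved with most of these genes. The mean level of the 10 markers had a Pearson's r over the arrays of 0.90 with Cidea, 0.87 with Cox8b, 0.75 with Cox7a1, 0.68 with Ucp1, 0.63 with Ppargc1a, 0.40 with Prdm16, 0.34 with Elovl3 and -0.23 with Dio2. On HFC Day 1 and the Day 6 arrays all 10 markers were well above background, with mean levels of 4.68 (HFC Day 1, brightest Adipoq at 6.22), 5.96 (LFC Day 6, Cfd at 7.75) and 5.59 (HFC Day 6, Cfd at 8.70). Prdm16 followed the 6 endothelial markers instead (r 0.84), and its r with the stromal markers was 0.67. Both Prdm16 (-2.81 and -2.42) and the endothelial mean (-4.71 and -2.51) were lowest on LFC Week 18 and HF5 Week 3. The macrophage markers had negative r with all 8 genes, from -0.54 with Cox7a1 to -0.03 with Prdm16. The part of these other cell types in the levels was not tested. On the 10 arrays with an adipocyte mean of 4.68 or more, Ucp1 read 6.41 (HFC Day 1), 6.74 (LFC Day 6), 6.77 (HFC Day 6), 2.59 (HFC Week 9), 2.10 (LFC Week 12), -0.57 (HF20 Week 15), -0.65 (HF5 Week 9), -0.71 (LFC Week 9), -1.88 (HF20 Week 12) and -2.68 (HF20 Week 9). Ucp1 thus differed widely among arrays of like adipocyte mean, with the highest levels on the 3 early ones. Some of the markers were saturated on most of these arrays, Adipoq on 9 of the 10 and Plin1 on 7, so their means are capped.

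**Figure D2:**
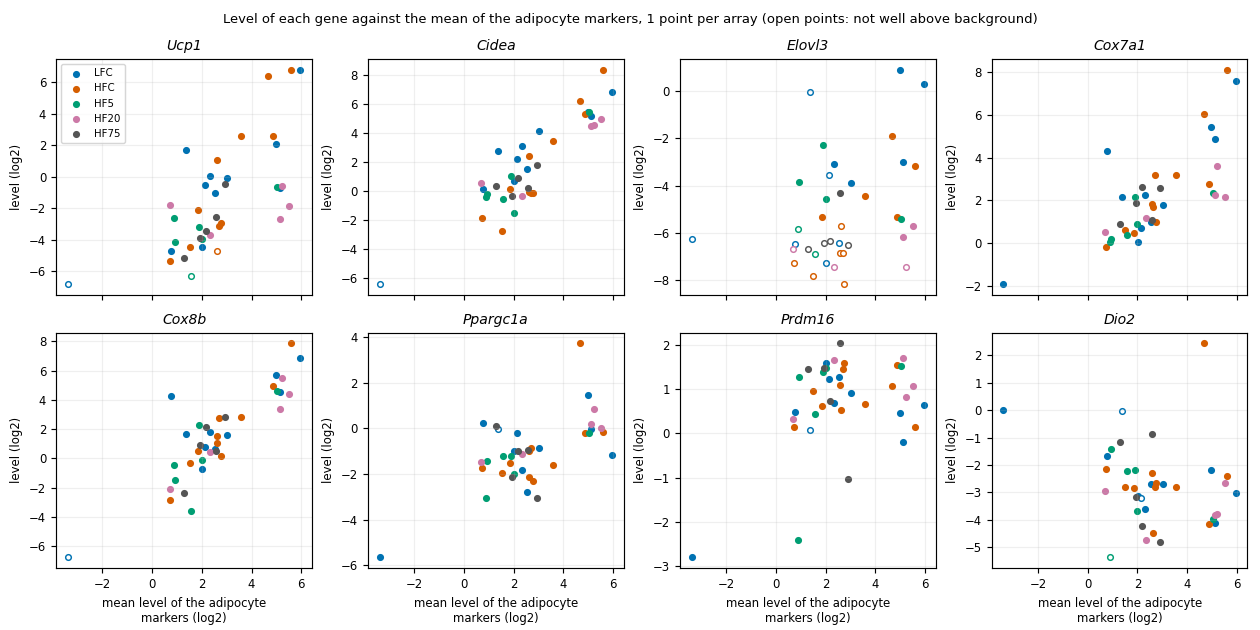
Level of each gene (y axis, log2) against the mean level of 10 adipocyte markers (x axis, log2), 1 point per array, coloured by diet, with open points for values not well above background. Cidea follows the markers (r 0.90) and Dio2 does not (r -0.23).

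The genes whose levels were nearest to each of these over the 38 arrays were sought among 20156 gene symbols, those whose probe lay well above background on 50% or more of them. For Ucp1 they were 2010003K11Rik (r 0.809), Otop1, Mel13, Acsm3 (0.789) and Gpd1 (0.785), where Otop1 encodes a proton channel of brown fat and Gpd1 a glycerol phosphate dehydrogenase. For Cidea they were Plin1 (0.930), the perilipin of white and brown fat droplets, then Gpd1 (0.926), Thrsp (0.912), Adrb3 (0.910) and Ppp1r1a (0.910). For Cox7a1 they were Cpt1b (0.887), the muscle and brown fat carnitine palmitoyltransferase, then Gpd1 (0.852), Ndufs7 (0.850), Mcts2 (0.844) and Etfb. Cox8b was nearest to Ppp1r1a (0.949), Plin1 (0.878), Retn (0.863), Thrsp (0.861) and Gpd1 (0.858). Gpd1 was thus among the nearest 5 of Ucp1, Cidea, Cox7a1 and Cox8b. Ppargc1a was nearest to Zfp30 (0.864), Plekhh3 (0.846), Mme (0.833), LOC631217 (0.822) and Ddo (0.822), and Prdm16 to Dst (0.889), BC020535 (0.883), Fam164a (0.865), Ptprg (0.857) and Wwc2 (0.856). By Spearman's rho the Prdm16 neighbours were weaker, from 0.611 (Wwc2) to 0.7 (Ptprg), against 0.84 (Plin1) to 0.882 (Gpd1) for those of Cidea. Dio2 had the weakest neighbours: Ninl (0.774), Ampd3 (0.732), P2ry1 (0.721), Fhdc1 (0.720) and AW209491 (0.684). Elovl3 was not well above background on 50% of the arrays, so none were sought for it.

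The 250 bases before the start of transcription are printed for Ucp1, Cox7a1 and Cox8b, which moved together over the arrays, and for Dio2, which did not. They are RefSeq sequences of build GRCm38.p6, matched for 6 of the 8 genes (the set of sequences used here holds none for Cidea and Elovl3): Ucp1 at chr8:83290098-83290347 on the plus strand, Cox7a1 at chr7:30183921-30184170 on the plus strand, Cox8b at chr7:140900447-140900696 on the minus strand and Dio2 at chr12:90739039-90739288 on the minus strand. Capitals mark matches to any of 4 motifs searched: TATAA on the printed strand, and CGTCA, TGACGTCA and AGGTCA on both strands.
Ucp1: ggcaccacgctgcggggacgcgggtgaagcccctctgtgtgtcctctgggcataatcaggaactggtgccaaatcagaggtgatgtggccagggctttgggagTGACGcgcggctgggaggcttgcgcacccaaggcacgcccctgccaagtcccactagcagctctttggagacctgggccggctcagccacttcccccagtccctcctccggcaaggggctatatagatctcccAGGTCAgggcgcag
Cox7a1: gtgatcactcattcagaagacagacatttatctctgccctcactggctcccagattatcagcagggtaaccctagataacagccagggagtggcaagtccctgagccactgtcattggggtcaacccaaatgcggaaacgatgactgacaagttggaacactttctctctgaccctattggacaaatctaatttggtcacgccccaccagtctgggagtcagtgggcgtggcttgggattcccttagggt
Cox8b: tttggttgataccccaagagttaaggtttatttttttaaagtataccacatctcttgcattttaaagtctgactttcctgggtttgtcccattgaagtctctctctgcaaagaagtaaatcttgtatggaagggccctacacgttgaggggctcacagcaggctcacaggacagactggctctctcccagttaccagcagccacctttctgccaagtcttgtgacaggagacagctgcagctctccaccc
Dio2: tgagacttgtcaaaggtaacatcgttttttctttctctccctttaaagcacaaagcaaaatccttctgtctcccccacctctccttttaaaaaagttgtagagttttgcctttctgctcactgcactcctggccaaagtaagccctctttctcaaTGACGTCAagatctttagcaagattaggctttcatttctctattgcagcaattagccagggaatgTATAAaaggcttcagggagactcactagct

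Of these motifs, CGTCA is an arm of the palindromic cAMP response element TGACGTCA, which holds it on both strands, and AGGTCA is the core of elements that nuclear receptors bind. In windows of the same length before 32851 gene starts, TATAA was found in 16.0%, CGTCA in 17.8%, TGACGTCA in 1.55% and AGGTCA in 14.0%. The Ucp1 window holds 1 CGTCA, read as TGACG, and 1 AGGTCA. The Dio2 window holds 1 TATAA and 1 TGACGTCA, whose 2 arms are its only CGTCA matches. The windows of Cox7a1 and Cox8b hold none of the 4. Of the windows not printed, Ppargc1a holds 1 CGTCA and Prdm16 none. A match is a description of letters, and an absence says only that they are not in the window.

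None of these genes passed the test between the high-fat and the low-fat diet without Kal-1. Of the 10 time pairs whose order can be read for each (Ucp1 at Week 18 was not well above background in either diet, and Cidea at Day 6 was saturated in both), Ucp1 was higher in HFC than in LFC in 5 and Cidea in 4, with differences of 0.42 (SE 0.87, adjusted p = 0.962) and -0.42 (SE 0.87, adjusted p = 0.961). Cidea was also saturated on HFC Day 1, HFC Week 9 and LFC Week 12, so its difference is of partly capped readings. At Day 1, Ucp1 stood at 6.41 (saturated) in HFC against 0.04 in LFC, on arrays of different slides and scan dates. At Week 12 the order turned, with -3.14 in HFC against 2.10 in LFC. On the 10 pairs that share a scan date, the mean Ucp1 difference was -0.18. The limma fit over all probes, with the time label as a block, called 0 of the 7 genes tested at an adjusted p under 0.05, where 0% of the 29215 probes tested were called (821 had an unadjusted p under 0.05). The median difference was 0.03 over the 7 genes and -0.07 over all probes. Prdm16 had the largest, 0.50 (SE 0.37, adjusted p = 0.941, 7 of 11 pairs higher), and the adjusted p of the 7 ran from 0.941 to 0.998. With 1 time label left out the Prdm16 difference ran from 0.22 to 0.61, and its Week 18 pair differed by 3.33. Elovl3 was well above background on too few arrays of either diet to be tested. Its order can be read in 5 of the 11 pairs, and it was lower in HFC in 4 of these. On the 4 pairs that share a slide (Day 6 and Weeks 0, 3 and 9), Ucp1 was higher in HFC in 2, with a mean difference of -0.58, and Prdm16 in 3, with a mean of 0.53. Without the Day 1 and Day 6 arrays the difference turned to -0.20 for Ucp1. Of the other cells, the endothelial markers had a median difference of 1.09 (6 of 6 positive), the stromal 1.13 (8 of 8), the early response genes 1.32 (8 of 8), the adipocyte 0.78 (8 of 10), the lymph node -0.44 (0 of 7) and the skin markers -1.60 (0 of 9). LFC Week 18 stood apart, with means of -4.71 (endothelial), -3.69 (stromal) and -3.39 (adipocyte), against 2.05, 3.01 and 2.61 on HFC Week 18. How far the medians depend on that array was not tested. Their part in the levels, those of Prdm16 and Elovl3 among them, was not tested.

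Under HF20, the middle dose of Kal-1, Cidea and Ppargc1a were on average above HFC without passing the test. HFC itself read 0.14, -1.90, 5.28, -0.16 and -2.76 for Cidea from Week 3 to Week 15, so HF20 was higher in 3 of 5 pairs, at Weeks 6, 12 and 15. Ppargc1a in HFC read -1.52, -1.72, -0.19, -0.88 and -1.94 and in HF20 -1.13, -1.47, 0.20, 0.00 and 0.85, so it was higher in HF20 in 5 of 5 pairs, although the ranges of the 2 diets overlapped. The differences were 2.68 (SE 1.25, adjusted p = 0.405) for Cidea and 0.94 (SE 0.42, adjusted p = 0.405) for Ppargc1a, whose other probe gave 1.35 with 4 of 5 pairs higher. The Cidea spot was saturated on HFC Week 9 and on no HF20 array, so its difference is an upper bound. Over the alternatives tried, the adjusted p ran from 0.136 to 0.796 for Cidea and from 0.242 to 0.796 for Ppargc1a. Cox8b differed by 1.30 (SE 1.00, adjusted p = 0.526, 3 of 5 pairs higher), of which 0.17 was left without the Week 15 pair (5.79), and Dio2 by -0.65 (SE 0.37, adjusted p = 0.432, 3 of 5 pairs lower). With 1 time label left out the Dio2 difference ran from -0.89 to -0.34. With limma, 0 of the 7 genes tested were called in this comparison, where 0% of 30831 probes were called (3661 at an unadjusted p under 0.05). The median difference was 0.57 over the 7 genes, 6 of them positive, and 0.08 over all probes. The adipocyte markers moved the same way, with a median of 1.28 and 9 of 10 positive, and the early response genes the opposite way, with a median of -2.31 and 0 of 8 positive. The lymph node (-1.34, 0 of 7 positive), endothelial (-0.69, 0 of 6), macrophage (-0.63, 0 of 9) and stromal markers (-0.57, 0 of 8) were lower too, and the skin markers higher (0.69, 7 of 9). Their part in the differences was not tested. No slide holds arrays of both diets. On the 4 pairs with a shared scan date, Ppargc1a was higher in HF20 in 4 (0.25 to 2.79) and Cidea in 3 (-0.81 to 7.26). Without Week 15, the pair with the widest gap, the Cidea difference was 1.54 and that of Ppargc1a 0.48.

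HF5 and HF75 are compared with the same HFC arrays as HF20, so the 3 comparisons are not independent and are set side by side. Under HF5, Elovl3 was higher in 3 of the 5 pairs whose order can be read, with a mean difference of 1.58 over all 6 (SE 0.64, unadjusted p = 0.0383, adjusted p = 0.957), and those 3, the pairs that share a slide (Weeks 12, 15 and 18), differed by 2.27, 3.97 and 3.43. On those 3 pairs the HFC value was raised each time, and under normexp background correction the difference turned to -0.40, so the adjusted p ran from 0.564 to 1.00 over the alternatives. The skin and sebaceous gland markers had a median difference of 2.18 in the same comparison (8 of 9 positive). It was -0.66 for the early response genes (0 of 8), -0.56 for the stromal (0 of 8) and -0.46 for the endothelial markers (0 of 6). The lymph node (-0.46, 1 of 7), macrophage (-0.45, 2 of 9) and adipocyte markers (-0.33, 2 of 10) were mostly lower too. Their part in the differences was not tested. Cox8b was lower under HF5 in 5 of 6 pairs (mean -0.82, from -1.23 to -0.40 with 1 time label left out). Ucp1 differed by -0.61 (-0.08 without Week 9) and Cidea by 0.53 (0.13 to 0.92 with 1 time label left out), with the Cidea spots of both diets saturated at Week 9. On the 3 pairs that share a slide, Ucp1 was higher under HF5 in 2, with a mean difference of 0.36. With limma, 0 of the 8 genes were called for HF5, where 0% of 29200 probes were called (1504 at an unadjusted p under 0.05). Their median difference was -0.19, against -0.00 over all probes. Under HF75, Ucp1 differed by -0.63, Cox8b by -0.23, Cidea by 0.44 at most (its HFC Week 9 spot was saturated) and Cox7a1 by 0.45. With 1 time label left out these differences ran from -1.26 to -0.02, -0.69 to 0.25, -0.19 to 1.42 and 0.02 to 0.89. Beside these the skeletal muscle markers had a median difference of 0.99 (10 of 10 positive), the mammary epithelium 1.88 (4 of 5), the macrophage -1.29 (1 of 9), the stromal -0.45 (2 of 8) and the adipocyte markers -0.32 (3 of 10), and their part was not tested. No slide holds arrays of both HF75 and HFC, and only 2 pairs (Weeks 12 and 15) share a scan date. On those 2 the mean difference turned to 0.56 for Ucp1 and -0.43 for Cox7a1, and was -0.55 for Cox8b and 1.35 for Cidea. In that comparison 0 of the 7 genes tested were called, at adjusted p from 0.751 to 0.995, where 1.02% of 28910 probes were (294, of which 235 were higher). At an unadjusted p under 0.05 there were 4210 probes, and the genes' median difference was -0.01, the same as over all probes. The 294 calls fell to 0 without the Week 3 pair.

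Ucp1 had its highest readings on early arrays, as did Cidea, whose spots were saturated on 3 early and 3 late arrays. In the 10 LFC and HFC arrays of Day 1 to Week 0, Ucp1 ran from -2.93 through a median of 0.57 to 6.77, and in the 12 of Weeks 3 to 18 from -6.79 (raised) through -3.79 to 2.59. Cidea ran from -0.15 through 3.25 to 8.33 early and from -6.43 (not well above background) through 0.13 to 5.43 late. The 2 spans overlapped for both genes, with the late arrays lower in the middle. All 8 genes had a lower mean late than early: the largest differences were -4.40 for Ucp1 (SE 1.36, unadjusted p = 0.00364, adjusted p = 0.827), with -4.19 on its other probe, and -3.09 for Cidea (SE 1.28, adjusted p = 1.00). The other Ucp1 probe was well above background on only 4 of the 12 late arrays, so the size of its difference depends on the lowest usable level of the others. Over the alternatives, the adjusted p of Ucp1 ran from 0.369 to 1.00 and that of Cidea from 0.435 to 1.00. Cox8b differed by -1.44, Cox7a1 by -1.39, Elovl3 by -0.92, Prdm16 by -0.53, Ppargc1a by -0.30 and Dio2 by -0.24. With 1 time label left out the difference ran from -2.14 to -0.08 for Cox8b, -1.98 to -0.27 for Cox7a1 and -0.70 to -0.22 for Prdm16. With limma, 0 of the 8 genes were called, where 0.00330% of 30259 probes were (1 probe, of the immunoglobulin gene Igh; 1306 at an unadjusted p under 0.05). The median difference was -1.16 over the genes and 0.01 over all probes. Without the Day 1 and Day 6 arrays, a choice made after seeing the data, the differences were -2.34 for Ucp1 and -1.56 for Cidea, and 3 genes turned sign: Cox7a1 (0.37), Ppargc1a (0.34) and Dio2 (0.20). Cox8b was then at -0.01, and Elovl3 fell to -0.02 under quantile normalization and to -0.24 without Day 6. The adipocyte markers had a median difference of -1.44 (1 of 10 positive) and the oxidative genes of brown fat -0.79 (1 of 22 positive). It was -1.08 for the endothelial (0 of 6), -0.85 for the skeletal muscle (0 of 10), -1.18 for the skin (1 of 9), -0.62 for the stromal (3 of 8) and 0.54 for the macrophage markers (8 of 9). The late arrays include LFC Week 18, with means of -4.71 (endothelial), -3.69 (stromal), -3.39 (adipocyte) and -5.14 (skeletal muscle). How far these medians depend on that array was not tested. The part of these cells was not tested. No slide and no scan date holds arrays of both periods, so the time and the batch of scanning cannot be told apart.

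Whether the HFC effect itself changed from early to late was tested on the same LFC and HFC arrays, so it is not independent of the comparisons of diet and of time. Ucp1 averaged 2.79 in HFC against 1.02 in LFC early, and -2.85 against -2.14 late. Dio2 averaged -1.54 against -3.05 early and -3.20 against -1.86 late. HFC was thus the higher diet early and the lower one late for both genes, with overlapping arrays in each period. The late minus early change of the HFC effect was -2.85 for Dio2 (SE 1.19), -2.48 for Ucp1 (SE 1.69) and -2.42 for Cox7a1 (SE 1.27), each with an adjusted p of 0.789. Over the alternatives the adjusted p ran from 0.569 to 1.00 for Dio2 and from 0.102 to 1.00 for Cox7a1. With 1 time label left out the Ucp1 change ran from -3.40 to -1.33. With limma, 0 of the 7 genes tested were called, where 0% of 29215 probes were (1305 at an unadjusted p under 0.05). The median change was -1.69 over the genes, 6 of them negative, and -0.52 over all probes. It was -1.68 over the 22 oxidative genes, with 1 positive. Several marker lists of other cells moved the opposite way, with medians of 3.47 for the lymph node (7 of 7 positive), 1.42 for the early response (8 of 8) and 1.19 for the stromal (8 tested, 7 positive). The median was 0.92 for the macrophage (9 of 9) and 0.56 for the endothelial markers (6 of 6). The skeletal muscle markers had a median of -0.41 (3 of 10 positive), and the part of all these was not tested. The adipocyte markers had a median of -0.13 (5 of 10). The late LFC arrays include Week 18, where the adipocyte, stromal and endothelial means were -3.39, -3.69 and -4.71, against 2.61, 3.01 and 2.05 in HFC. How far these medians depend on that array was not tested. The Dio2 change itself ran from -3.27 to -0.42 over the alternatives, with -0.42 under normexp background correction and -1.72 without Day 1, where HFC held its highest Dio2 level. The late LFC mean of Dio2 includes the raised -0.03 of the dim Week 3 array.

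The Week 9 arrays gave the only calls among these genes. The titles of 4 Week 9 arrays, of LFC, HFC, HF5 and HF20, carry the letters WS, which the sources used here do not explain, and these were compared with the 8 arrays of the same diets at Weeks 6 and 15. Cidea read 5.12, 5.28, 5.45 and 4.47 on the 4 (LFC, HFC, HF5, HF20), and on the 8 others ran from -2.76 through a median of -0.05 to 4.50. The 4 were high and the 8 mostly low, and the groups overlapped at 1 point, since HF20 Week 15 (4.50) lay above HF20 Week 9 (4.47). Dio2 read -4.13, -4.15, -3.99 and -3.84 on the 4 and ran from -3.79 through -2.50 to -1.43 on the 8, so the groups did not overlap. Cidea rose by 5.03 (SE 0.90, adjusted p = 0.0389), at least 32.7-fold since 2 of the 4 spots and none of the 8 were saturated, and Dio2 fell by 1.51 (SE 0.38, adjusted p = 0.0478, 0.352-fold). These were 2 of the 8 genes, where limma called 7.10% of 31346 probes (1468 higher and 759 lower). The median difference was 1.81 over the genes and 0.03 over all probes.

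The other 6 genes were on average higher at Week 9 as well, without passing the test. Ucp1 read -0.71, 2.59, -0.65 and -2.68 on the 4 arrays (LFC, HFC, HF5, HF20) and ran from -6.28 (not well above background) through -4.45 to -0.57 on the 8. Of the 4, only HFC was above every one of the 8, and the difference was 3.60 (SE 1.13, adjusted p = 0.0768), with 2.28 on the other probe. That probe was well above background on only 3 of the 8, so the size of its difference depends on the lowest usable level of the others. Cox8b read 4.52, 4.97, 4.64 and 3.37 on the 4 and ran from -3.58 through -1.14 to 5.49 on the 8, a difference of 4.55 (SE 1.57, adjusted p = 0.0981). For Cox8b the overlap came from HF20 Week 15 (5.49) and LFC Week 6 (4.24). Elovl3 was well above background on 4 of 4 and 1 of 8 (difference 1.74, adjusted p = 0.131), Cox7a1 differed by 1.87 (adjusted p = 0.172), Ppargc1a by 0.90 (adjusted p = 0.202) and Prdm16 by 0.39 (adjusted p = 0.56). With 1 array left out the difference ran from 1.03 to 2.33 for Elovl3 and from 0.14 to 0.93 for Prdm16. Under the other alternatives that of Elovl3 ran from 0.51 to 2.40. The HF75 Week 9 array, whose title lacks the letters, read 1.80 for Cidea, -4.82 for Dio2, 2.81 for Cox8b and -0.46 for Ucp1. Without HF20 Week 15 (HF20 replicate 5), Ucp1 (4.07, adjusted p = 0.0263), Cox8b (5.51, 0.00982), Ppargc1a (1.16, 0.0321) and Cox7a1 (2.29, 0.0484) passed as well. Without HF20 Week 9 (HF20 replicate 3), Ucp1 passed (5.30, adjusted p = 0.0189). Without HFC Week 9 (HFC replicate 8), the Ucp1 difference fell to 2.31 (adjusted p = 0.267). Over all alternatives the adjusted p ran from 0.0189 to 0.364 for Ucp1 and from 0.00982 to 0.371 for Cox8b.

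Both calls depended on the arrays and on the fit. Over the alternatives the adjusted p of Cidea ran from 0.000361 to 0.281 and its difference from 4.17 to 6.05, and for Dio2 they ran from 0.0121 to 0.395 and from -1.86 to -0.58. No slide and no scan date holds both sides, so the letters, the week and the batch of scanning cannot be told apart. With slide as a random block the difference was 4.87 for Cidea (adjusted p = 0.281) and -1.47 for Dio2 (adjusted p = 0.316). Against all other weeks from Week 3 to Week 18 of the 4 diets it was 4.71 for Cidea (adjusted p = 0.127) and -1.30 for Dio2 (adjusted p = 0.292). Under normexp background correction Dio2 gave -0.58 (adjusted p = 0.395). Leaving out any 1 of 10 of the 12 arrays ended both calls, and only without HF20 replicate 3 or HF20 replicate 5 did they hold (Cidea 6.05 and 5.63, Dio2 -1.86 and -1.66).

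**Figure D3:**
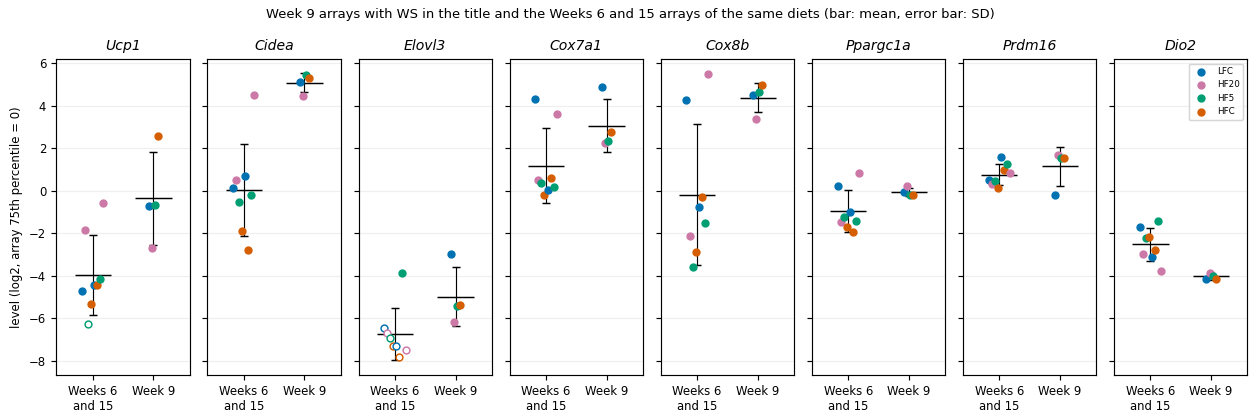
Level of each gene (y axis, log2) on the 4 Week 9 arrays with WS in the title and on the 8 arrays of the same diets at Weeks 6 and 15 (x axis), 1 point per array coloured by diet, with the group mean (bar) and SD (error bar) and open points for values not well above background. Cidea is at 4.47 or more on the 4 arrays, and Dio2 is at -3.84 or less.

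The genes around these 8 in the thermogenic pathway were read in the same Week 9 comparison, where 7.10% of all probes were called and the median over all probes was 0.03. Of the 30 genes named from the lists, 0 passed with slide or scan date as a random block or against all other weeks. Of the adrenergic and cAMP genes, 4 of 13 rose (median 0.69): the beta adrenergic receptors Adrb3 (6.52, SE 1.21, adjusted p = 0.0389) and Adrb1 (3.10, SE 0.61, adjusted p = 0.0393), the kinase subunit Prkar2b (3.26, SE 0.81, adjusted p = 0.047) and 1 more. The spots of Adrb3 and Prkar2b were saturated on all 4 Week 9 arrays and on HF20 Week 15, so these are differences of capped readings and give neither a fold nor a bound. Of the browning ligands and receptors, 5 of 14 rose and 1 fell (median 0.06): the adipocyte-secreted Nrg4 (6.05, SE 1.12, adjusted p = 0.0389), the Fgf21 coreceptor Klb (5.81, SE 1.25, adjusted p = 0.0401) and the natriuretic peptide clearance receptor Npr3 (4.49, SE 0.91, adjusted p = 0.0393) rose most, and the interleukin receptor chain Il4ra fell (-1.55, adjusted p = 0.0486). Of the paralogues, 4 of 17 rose (median -0.05), among them Ucp3 (4.65, SE 1.20, adjusted p = 0.0492, 2.50 under normexp), the lipid droplet protein Cidec (3.15, SE 0.70, adjusted p = 0.0418, capped on the same 5 arrays) and the coactivator Ppargc1b (1.50, adjusted p = 0.0446). Of the oxidative and futile-cycle genes of brown fat, 5 of 22 rose (median 1.27), among them Otop1 (4.26, SE 0.77, adjusted p = 0.0389, 2.30 under normexp), the carnitine palmitoyltransferase Cpt2 (2.75, adjusted p = 0.0393) and the acyl-CoA dehydrogenase Acadm (at least 4.03-fold, adjusted p = 0.0416, 3 of 4 spots saturated). Of the thyroid hormone genes, 2 of 5 rose (median 0.75): Thrsp, a lipogenic target of the hormone (at least 17.4-fold, adjusted p = 0.0399, 1 of 4 spots saturated), and the receptor Thrb (1.73, adjusted p = 0.0479). Ucp3 was well above background on only 3 of the 8 arrays and Otop1 on 4, so the size of their rise depends on the lowest usable level of the others. In each of the remaining lists a single gene was called, a share near that over all probes. These were 1 of 18 regulators (median 0.64), the oxysterol receptor Nr1h3 (1.93, adjusted p = 0.0424), and 1 of 8 beige markers (median -0.46), the fatty acid transporter Slc27a1 (2.24, SE 0.42, adjusted p = 0.0389). No gene of these 7 lists was called in any of the other 6 comparisons, each of which called at most 1.02% of all probes.

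Some markers of other cells moved at Week 9 too, where 7.10% of all probes were called. Of the adipocyte markers, 6 of 10 rose (median 3.06, on partly capped readings): Lep (6.37, SE 0.92, adjusted p = 0.0389), Retn (at least 78.8-fold, adjusted p = 0.0393, saturated on all 4 arrays and none of the 8) and Plin1 (5.52 on readings capped on all 4 and on HF20 Week 15, SE 1.09, adjusted p = 0.0393) rose most. The mean of the 10 was 5.13 in LFC (brightest Retn at 5.76), 4.88 in HFC (Retn at 5.36), 5.04 in HF5 (Adipoq at 5.67) and 5.13 in HF20 (Adipoq at 5.63), with all 10 well above background. Of the early response genes, which dissociating tissue is known to induce, 8 of 8 fell (median -3.45), led by Fos (-6.09, SE 0.65, adjusted p = 0.0343), Fosb (-5.21, adjusted p = 0.0389) and Atf3 (-4.71 or lower, adjusted p = 0.0389, saturated on 1 of the 8). Junb was saturated on 7 of the 8 and Egr1 on 4 of the 8 and on HFC Week 9, so the median is of partly capped readings. The 4 Week 9 arrays were not alike in these genes, with means of -0.14 (LFC), 0.21 (HF5) and 0.59 (HF20) but 3.13 on HFC, where Egr1 was brightest (5.29) and Cidea stood at 5.28. The mammary epithelium markers Krt8 (-9.66), Krt18 (-7.69 or lower, saturated on 1 of the 8) and Epcam (-5.57) fell, 3 of 7 tested (median -3.18). Krt8 and Epcam were well above background on only 1 of the 4 Week 9 arrays, so the size of their fall depends on the lowest usable level of the others. Lower too were 1 each of the stromal (Pdgfra, -1.30 but -0.03 against all other weeks, of 8), macrophage (Cd14, -2.97, of 9), skin (Krt14, -4.47, of 9) and lymph node (Ccl19, -3.05, of 7) markers, while 0 of 6 endothelial and 0 of 10 muscle markers were called. Such single calls are near the share over all probes and are not read as a change of the cell type. The part of these cells in the levels of Cidea, Dio2 and the other 6 genes was not tested. Outside Week 9, 6 arrays had an adipocyte mean of 4.68 or more: HFC Day 1, LFC Day 6, HFC Day 6, LFC Week 12, HF20 Week 12 and HF20 Week 15 (4.68, 5.96, 5.59, 4.98, 5.52 and 5.22). Their early response means were 0.38, 0.56, 4.13, -0.21, -0.89 and 2.44, against 4.58 on the median array, so HFC Day 6 lay near the median array and the other 5 below it. Cidea stood at 6.15, 6.77, 8.33, 5.43, 4.92 and 4.50 on those 6 arrays, and Ucp1 at 6.41, 6.74, 6.77, 2.10, -1.88 and -0.57. Cidea was saturated on 4 of the 6 and Ucp1 on HFC Day 1. Of the 30 genes named from the lists, all 30 passed without HF20 replicate 5, without HF20 replicate 3 there were 29, without HFC replicate 8 there was 1 (Fos, -6.93, adjusted p = 0.0311), and without any 1 of the other 9 arrays 0.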

How the data were processed

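RNA of subcutaneous SVCs was hybridized by the authors to 1-colour Agilent mouse arrays, 40 in the series, of which 38 with consistent labels were used. The values are the intensity per spot (processed signal), which per the file headers Feature Extraction 10.5.1.1 made after its own background treatment. The authors' deposited table of fold changes, a ratio per probe, gave the gene symbols, and its values were not used. Outlier spots among the 43803 spots that are not controls were dropped, repeated spots of a probe were averaged, and each array was scaled to its 75th percentile over 30 slides and 15 scan dates. Values not well above background (that is, with under 50% of spots well above it) were raised to the lowest level well above background of that array where they lay under it. The order of 2 values was taken as readable where the higher was well above background and the lower was not saturated.

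For 7 comparisons, limma 3.58.1 (lmFit and eBayes) was fitted in R 4.3.3 with data.table (version 1.17.8) over every probe that 50% or more of the arrays of 1 group or the other showed well above background, with Benjamini-Hochberg adjusted p under 0.05 as the threshold. Comparisons of diets used the time label as a block, and those of time used diet as a term; the change of the HFC effect used both. The Week 9 comparison took LFC, HFC, HF5 and HF20 arrays. Tables, correlations and figures used Python 3.11.15, pandas 2.3.3, numpy 2.4.6, scipy 1.17.1 and matplotlib 3.10.9, and the search for the nearest genes was tested on simulated data. A gene with several probes is represented by the probe with the highest mean level over the 38 arrays.

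All probes of the 8 genes are named whatever their values. Of each of 7 pathway lists and 9 marker lists, the genes past the threshold are named, at most 3 with the largest change in each direction, and for each of the 8 genes the 5 others with the highest Pearson correlation. The 8 genes and the lists were chosen with earlier results of these data known. Alternatives were normexp background correction (offset 50), quantile normalization, no raising, other filters, slide or scan date as a random block, no time block, and leaving arrays out. Of the list genes, 2 have no probe (Ear2 and Ccl21a). Which animals or pools gave each array was not analysed here, since the sources used here do not give it.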

Additional observations from a re-analysis of the deposited data

Results flagged for a closer look

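Of 30 groups of 5 or 6 arrays (a probe within HF5, HF20 or HF75, for 10 probes), 3 held 1 array far from the others, where chance gives about 1 in 20 groups. Cidea on HF5 Week 9 read 5.45, with the next HF5 array at 1.01 and the lowest at -1.57. Elovl3 on HF75 Week 15 read -4.32, with the next at -6.35. That value and those of the other 3 HF75 arrays were not well above background. Prdm16 on HF5 Week 3 read -2.42, with the next HF5 array at 0.44 and the highest at 1.53.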

How the results depend on the processing

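For the 8 genes, 926 values of 52 results were recomputed: 816 kept their direction and their side of the threshold, 28 lost the call, 5 gained it and 77 changed sign, none of the last past the threshold. Of 595 values of the 30 named list genes, 180 kept the call and 415 lost it with the same sign. Dim signal limits Elovl3 most. Arrays of different diets were paired by time label, and beyond that no paired analysis was possible because no animal or sample number joins them. Slide as a random block could not be run for HF20 and HF75 against HFC, since no slide holds more than 1 of those arrays. The cause of the changes was not tested.

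HFC against LFC turned sign without the Day 1 and Day 6 arrays (chosen after seeing the data) for Ucp1 (-0.20), Cox7a1 (-0.44), Cox8b (-0.10) and Ppargc1a (-0.49); under quantile normalization for Cox7a1 (-0.12), Cox8b (-0.33) and Dio2 (0.14); and under normexp for Cox8b (-0.18), Ppargc1a (-0.06) and Dio2 (0.12). Without the Week 3 and Day 14 arrays it turned for Cox7a1 (-0.04), Cox8b (-0.10) and Dio2 (0.20), with scan date as a random block for Cox7a1 (-0.05), without Week 9 for Cox8b (-0.03), on the other probe for Ppargc1a (-0.12), and for Dio2 without raising (0.06) and with slide as a block (0.02). HF5 against HFC turned on the other probe for Ucp1 (0.18) and Ppargc1a (0.00), under normexp for Elovl3 (-0.40), Prdm16 (0.07) and Dio2 (-0.43), and with slide as a block for Dio2 (-0.07). HF20 against HFC turned under normexp for Ucp1 (-0.23). HF75 against HFC turned without Week 9 for Cox8b (0.25), Ppargc1a (0.52) and Prdm16 (0.63), under normexp for Ppargc1a (0.02) and Prdm16 (0.26), on the other probe for Ppargc1a (0.06) and with scan date as a block for Prdm16 (0.12). Late against early turned without Day 1 and Day 6 for Cox7a1 (0.37), Ppargc1a (0.34) and Dio2 (0.20), under quantile normalization for Dio2 (0.37) and without Week 9 for Dio2 (0.09).

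With 1 time label left out at a time, HFC against LFC ran from -0.18 to 0.98 for Ucp1, -1.10 to 0.09 for Cidea, -0.34 to 0.49 for Cox7a1, -0.86 to 0.81 for Cox8b, -0.34 to 0.45 for Ppargc1a and -0.66 to 0.39 for Dio2. HF5 against HFC ran from -0.33 to 0.16 for Ppargc1a, -0.49 to 0.30 for Prdm16 and -0.39 to 0.57 for Dio2. HF20 against HFC ran from -0.53 to 1.75 for Ucp1, -0.03 to 0.98 for Cox7a1 and -0.05 to 0.31 for Prdm16. HF75 against HFC ran from -0.19 to 1.42 for Cidea, -0.69 to 0.25 for Cox8b, -0.65 to 0.52 for Ppargc1a, -0.34 to 0.63 for Prdm16 and -0.36 to 0.47 for Dio2. Late against early ran from -0.73 to 0.26 for Ppargc1a and -0.46 to 0.19 for Dio2, and the late minus early HFC effect from -2.69 to 0.30 for Cox8b.

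The count of probes called for HF75 against HFC (294) was 148 with no filter, 149 with probes well above background on every array, 0 with no time block, and 0 to 205 with 1 time label left out. For late against early (1) it was 2 with probes well above background on every array, and 0 under normexp, quantile normalization, no filter, slide or scan date as a block, without the Week 3 and Day 14, Week 9, or Day 1 and Day 6 arrays, and 0 to 4 with 1 label left out. At Week 9 (2227) it was 499 under normexp, 760 with no filter, 0 with slide or scan date as a block or against all other weeks, and 0 to 6757 with 1 array left out. The median of all probes read -0.30 under normexp against -0.00 in the fit as reported for HF5, -0.39 against 0.08 for HF20, -0.23 against -0.01 for HF75, -0.20 against 0.01 for late against early, 0.69 against -0.52 for the change of the HFC effect and 0.21 against 0.03 for Week 9. Under quantile normalization it read 0.25 for late against early and -0.41 for the change of the HFC effect.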

Other observations

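The 2 Week 18 arrays with conflicting dose labels were read as values only. The first had 21710 spots marked as outliers, so that Ucp1, Cidea, Elovl3 and Dio2 have no value there, and it gave 0.46 for Cox7a1, -0.35 for Cox8b, -1.43 for Ppargc1a and 1.04 for Prdm16. The second gave -3.05 for Ucp1, 1.32 for Cox7a1, 0.90 for Cox8b, -1.58 for Ppargc1a, 1.46 for Prdm16 and -2.80 for Dio2, with Cidea just above its median of 0.95 over the 38 arrays and Elovl3 not well above background. Their adipocyte marker means were 1.93 and 3.15. These levels lie within the span of the 38 other arrays for every gene.

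Zic1, a transcription factor of classical brown fat, was at 0.95 on HFC Day 1 and at -1.55 or lower, or not well above background, on every other array. Otop1 stood at 2.93 on the same HFC Day 1 array, where Ucp1 was at 6.41. Ucp1 also read 6.74 on LFC Day 6 and 6.77 on HFC Day 6, without such a Zic1 level. Zic1 and Otop1 are single members of lists of 18 and 22 genes, whose other members are not given by array. Zic1 passed the threshold in no comparison, and what these levels on a single array mean was not tested.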
